A study of Homo sapiens with 10 samples.

Results

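The genes described here are 10 genes of ER-associated degradation (ERAD), namely HERPUD1, SEL1L, SYVN1, DERL1, DERL2, DERL3, EDEM1, EDEM2, EDEM3 and OS9. They were taken by gene symbol from the deposited count table, which lists 28380 genes, and all 10 passed the filter on low counts. RPE-1 is an established human retinal pigment epithelial line immortalized with telomerase. The line was exposed for 4 h to 25 µM sulforaphane (SFN), an isothiocyanate from cruciferous vegetables, or to the vehicle DMSO, with 5 replicates per treatment, and no other agent or allele distinguishes the groups. The labels do not say whether the replicates were separate cultures. The study's methods give a cell number for each replicate, without saying for this experiment whether replicates were prepared independently. The p-values therefore measure only the spread between these samples, which may be technical.

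ERAD clears proteins that fail to fold in the endoplasmic reticulum (ER). Lumenal lectins and mannosidases recognize a misfolded glycoprotein, a membrane complex built around a ubiquitin ligase moves it to the cytosol and ubiquitinates it, and the p97/VCP ATPase pulls it out for the proteasome. Many ERAD genes are known targets of the unfolded protein response (UPR), whose factors ATF6 and XBP1 bind ER stress response elements in promoters, and HERPUD1 is also a known target of the integrated stress response factor ATF4. In RPE cells, which handle a heavy load of secreted and membrane proteins, this pathway belongs to the normal quality control of the secretory route.

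Promoter sequences are shown for the member with the largest change, HERPUD1, for the ubiquitin ligase SYVN1, and for SEL1L, the partner of SYVN1, whose increase did not pass the test. RefSeq promoter sequences (GRCh38.p14, 250 bases before to 50 after the start) matched 8 of the 10 members, all but DERL1 and DERL3. The bases before the start are printed 5′ to 3′ on the gene's strand, from chr16:56931892-56932141 (plus strand), chr11:65134533-65134769 (minus strand) and chr14:81533854-81534103 (minus strand). The SYVN1 sequence ends 13 bases short of the RefSeq start, because a GENCODE transcript begins there, and positions are counted from the RefSeq start. Capitals mark matches to the motifs described next.
HERPUD1: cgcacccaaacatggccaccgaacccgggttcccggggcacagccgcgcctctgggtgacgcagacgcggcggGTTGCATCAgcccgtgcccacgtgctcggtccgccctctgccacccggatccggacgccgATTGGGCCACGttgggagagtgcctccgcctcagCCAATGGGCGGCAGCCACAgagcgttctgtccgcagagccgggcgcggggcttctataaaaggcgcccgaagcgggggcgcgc
SYVN1: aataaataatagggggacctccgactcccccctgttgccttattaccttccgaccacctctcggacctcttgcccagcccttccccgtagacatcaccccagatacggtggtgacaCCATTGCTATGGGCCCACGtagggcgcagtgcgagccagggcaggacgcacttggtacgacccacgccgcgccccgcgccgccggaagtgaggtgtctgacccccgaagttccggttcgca
SEL1L: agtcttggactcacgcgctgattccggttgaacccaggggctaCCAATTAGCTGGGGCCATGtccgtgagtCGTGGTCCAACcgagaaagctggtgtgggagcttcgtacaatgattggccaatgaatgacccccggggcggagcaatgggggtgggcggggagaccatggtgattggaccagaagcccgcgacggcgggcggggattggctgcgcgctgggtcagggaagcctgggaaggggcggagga
On both strands, the windows were searched for the ER stress response element ERSE (CCAAT and CCACG with 9 bases between them), ERSE-II (ATTGG and CCACG with 1 base between them), the UPR element UPRE (TGACGTGG) and the C/EBP-ATF response element CARE (TGATGNAAN), where ERSE and ERSE-II both end in CCACG. HERPUD1 was the only one of the 8 members with an exact ERSE-II, ATTGGGCCACG at positions -117 to -107, a motif found in 19 of 35116 promoters (0.0541%). It also held CARE on the minus strand at positions -177 to -169, found in 3.61% of promoters, and a sequence with 1 mismatch to ERSE at positions -83 to -65. A match to ERSE with up to 1 mismatch, present in 1.55% of promoters, was also found in SYVN1 (positions -134 to -116) and SEL1L (positions -207 to -189), and both also matched ERSE-II with 1 mismatch (1.23% of promoters), in SYVN1 within the ERSE match. The 8 windows held no exact ERSE (0.0769% of promoters) and no UPRE (0.729%). These are matches of letters within short windows and not measured binding.

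Total counts ranged from 12375860 to 20666692 per library. Values are given as CPM, counts relative to the library total after scaling by the TMM method, and a level is not compared between genes. DMSO replicate 1 stood apart, with a mean Spearman correlation across genes of 0.935 with its group against at least 0.979 for the other DMSO libraries. For this reason several results are given with and without it. Of 14 RPE marker genes, MITF, OTX2, BEST1, KRT8 and KRT18 had at least 97 counts in every library. Across the libraries BEST1 ranged from 5.42 to 107 CPM, MITF from 18.7 to 55.1 CPM and OTX2 from 8.69 to 17.7 CPM. PMEL and LRAT had between 3 and 29 counts, and RPE65, RLBP1, TYRP1, TTR and SERPINF1 had between 0 and 4. TYR and DCT, the other markers listed, were not in the count table. The list summed to between 582 and 876 CPM in DMSO and between 566 and 993 CPM in SFN, most of it KRT8 and KRT18. The 8 mesenchymal markers summed to between 6301 and 7225 CPM in DMSO and between 6689 and 10054 CPM in SFN. Most of that sum was VIM (5424 to 8567 CPM), while COL1A2 and S100A4 had at most 5 and 16 counts in a library. The part of either list in the results below was not tested. In bulk RNA, fewer cells of a type and less RNA per cell cannot be told apart.

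SFN increased 6 of the 10 ERAD genes and decreased 0. HERPUD1 rose 7.74-fold, DERL3 2.33-fold, SYVN1 1.68-fold, DERL1 1.61-fold, OS9 1.35-fold and EDEM1 1.33-fold, while SEL1L, DERL2, EDEM2 and EDEM3 did not pass the test. Calls rest on the quasi-likelihood test of edgeR with Benjamini-Hochberg adjustment over the 13378 genes tested and a threshold of 0.05, and log2FC and SE stand for the log2 fold change of SFN against DMSO and its standard error. Over those genes, 9.07% were increased and 13.9% decreased. All 10 members had a positive log2 fold change, with a median of 0.42, against a median of -0.028 and 47.4% positive over all genes tested. HERPUD1 and DERL3 were increased more than 2-fold, as were 2.94% of all genes tested. At an unadjusted p under 0.05, 8 members were increased and 0 decreased, against 14.6% and 20% of all genes tested. Every SFN library lay above every DMSO library for 6 members, the same 6 that passed the test, against 8.78% of all genes tested.

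**Figure D1:**
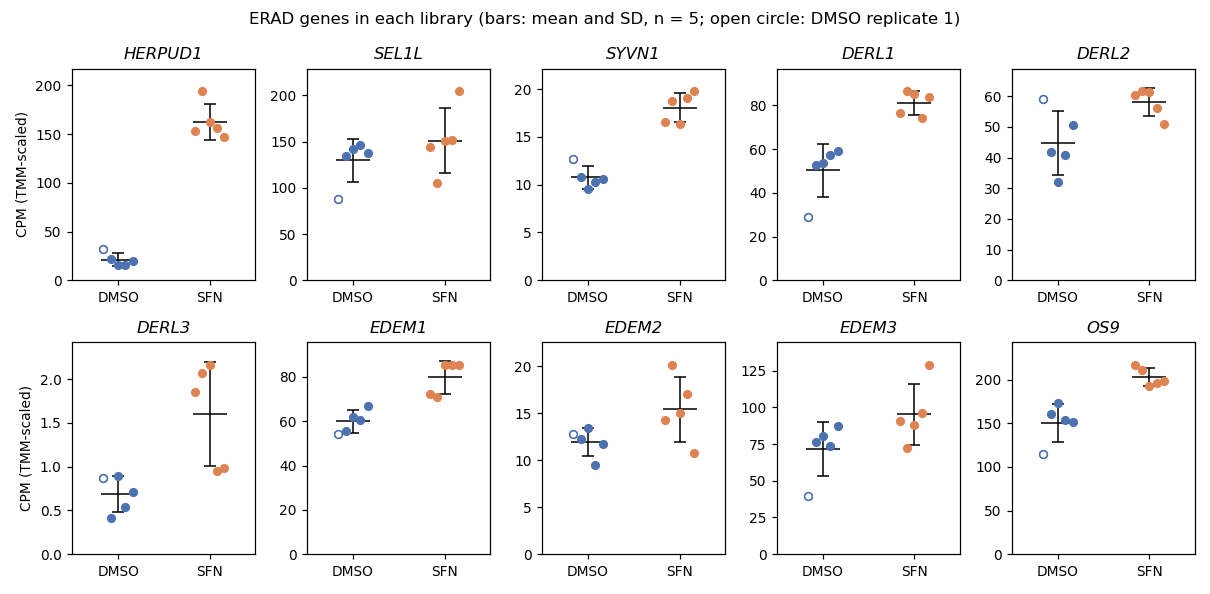
Each panel plots 1 ERAD gene in CPM (vertical axis, from 0) for the 5 DMSO libraries (blue) and the 5 SFN libraries (orange), with the mean and SD as black bars and DMSO replicate 1 as an open circle. The groups are separate for HERPUD1, SYVN1, DERL1, DERL3, EDEM1 and OS9 and overlap for SEL1L, DERL2, EDEM2 and EDEM3.

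HERPUD1 encodes a ubiquitin-like membrane protein that recruits components to the SYVN1 ligase complex and is itself induced by ER stress. On GRCh38 it occupies chromosome 16 from 56932142 to 56944864. HERPUD1 measured 31.9, 21.4, 15.9, 15.7 and 20.1 CPM in DMSO replicates 1 to 5 and 153, 194, 162, 156 and 147 CPM in SFN replicates 1 to 5. The lowest SFN library was thus far above the highest DMSO library, which was DMSO replicate 1. The mean rose from 21.0 ± 6.60 to 163 ± 18.3 CPM (SD, n = 5 per group), a log2 fold change of 2.95 with a standard error of 0.20 (edgeR quasi-likelihood adjusted p = 1.8e-06). The counts behind these values were between 261 and 513 in DMSO and between 2088 and 2569 in SFN. Without DMSO replicate 1 the HERPUD1 log2 fold change was 3.14 (standard error 0.12), and it was past the threshold in all 19 alternative analyses, between 2.83 and 3.14. HERPUD2, its paralog, had a log2 fold change of 0.14 with a standard error of 0.15 (edgeR quasi-likelihood adjusted p = 0.57) and was added here after its value was seen.

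SYVN1, also called HRD1, is the ubiquitin ligase at the centre of the complex. Its gene is on chromosome 11 from 65121780 to 65134532. SYVN1 measured 12.7, 10.8, 9.50, 10.2 and 10.6 CPM in the DMSO libraries and 16.5, 18.7, 16.3, 19.0 and 19.8 CPM in the SFN libraries, in replicate order. All SFN values lay above all DMSO values. The mean went from 10.8 ± 1.19 to 18.1 ± 1.56 CPM (SD, n = 5), a log2 fold change of 0.75 with a standard error of 0.12 (edgeR quasi-likelihood adjusted p = 6.9e-04). This increase passed the threshold in all 19 alternatives. MRPL49 lies on the opposite strand and reaches the last exon of SYVN1, with at most 886 counts in a library, and the use of strand in counting is not given in the sources used here, so reads of the pair may not be told apart. FAU, on the same strand and with up to 12976 counts, overlaps the 3′ end of the SYVN1 gene outside the last exon of its canonical transcript, where strand would not separate the reads.

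SEL1L is the membrane adaptor that stabilizes SYVN1 and receives substrates from the lectins. The gene is on chromosome 14 from 81471547 to 81533853. SEL1L measured 88.4, 134, 142, 146 and 138 CPM in DMSO replicates 1 to 5 and 144, 105, 151, 151 and 205 CPM in SFN replicates 1 to 5. The groups overlapped, with DMSO replicate 1 and SFN replicate 2 lowest and SFN replicate 5 highest. Its log2 fold change of 0.22 had a standard error of 0.18 (edgeR quasi-likelihood adjusted p = 0.44) and was 0.10 (standard error 0.14) without DMSO replicate 1. SFN replicates 2 and 5 also had the lowest and highest transcript-length slope among the SFN libraries, -0.183 and 0.109 log2 CPM per doubling of transcript length relative to the mean of all libraries. That slope was most extreme in DMSO replicate 1 (-0.271), lay between 0.087 and 0.148 in the other DMSO libraries and was below 0 in SFN replicates 1 to 4, so it moved with treatment as well. With that slope as a covariate, an alternative chosen after seeing the data, the SEL1L log2 fold change was 0.39 (edgeR quasi-likelihood adjusted p = 2.6e-04).

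Derlins are membrane proteins of the rhomboid family that help substrates cross the ER membrane. DERL1, on chromosome 8 from 123013170 to 123042302, measured 29.0, 52.8, 53.7, 57.1 and 58.9 CPM in DMSO and 76.5, 86.4, 85.0, 74.4 and 83.7 CPM in SFN. The groups did not overlap, and DMSO replicate 1 was well below the other DMSO libraries. The mean of DERL1 rose from 50.3 ± 12.2 to 81.2 ± 5.41 CPM (SD, n = 5), with a log2 fold change of 0.69 and a standard error of 0.17 (edgeR quasi-likelihood adjusted p = 0.012). Leaving out DMSO replicate 1 lowered the DERL1 log2 fold change to 0.54 and its standard error to 0.081 (edgeR quasi-likelihood adjusted p = 1.2e-04). With libraries scaled by their size only, DERL1 was not past the threshold (adjusted p = 0.060).

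DERL2 lies on chromosome 17 from 5471254 to 5486811. It measured 59.2, 41.6, 31.9, 40.7 and 50.4 CPM in DMSO and 60.3, 61.6, 61.3, 56.1 and 51.0 CPM in SFN. Among the DMSO libraries replicate 1 was here the highest, reaching into the SFN range, while the other 4 DMSO libraries were below all SFN libraries. The log2 fold change was 0.38 with a standard error of 0.15 (edgeR quasi-likelihood adjusted p = 0.10), and without DMSO replicate 1 it was 0.49 with a standard error of 0.12 (edgeR quasi-likelihood adjusted p = 0.0040). DERL2 passed the threshold in 4 of 19 alternatives.

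DERL3, on chromosome 22 from 23834503 to 23839128, had few counts, between 9 and 16 counts in a DMSO library and between 14 and 31 in an SFN library. Its values were 0.872, 0.410, 0.894, 0.542 and 0.71 CPM in DMSO and 1.85, 2.07, 2.16, 0.945 and 0.989 CPM in SFN. SFN replicates 4 and 5 lay just above the highest DMSO library. The log2 fold change was 1.22 with a standard error of 0.34 (edgeR quasi-likelihood adjusted p = 0.021), and the call was lost without DMSO replicate 2, DMSO replicate 4, SFN replicate 1 or SFN replicate 3 (adjusted p between 0.056 and 0.060). SMARCB1, with up to 1597 counts in a library, lies on the opposite strand and reaches the last exon of DERL3, so the few DERL3 counts could include its reads if strand was not used.

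The EDEM proteins and OS9 act in the lumen: EDEM1, EDEM2 and EDEM3 are mannosidase-family proteins that trim or bind the sugars of misfolded glycoproteins, and OS9 is the lectin that reads the trimmed sugar and hands the substrate to SEL1L. OS9, on chromosome 12 from 57693841 to 57728342, measured 115, 161, 173, 153 and 151 CPM in DMSO and 217, 211, 192, 196 and 199 CPM in SFN. All SFN libraries were above all DMSO libraries, and DMSO replicate 1 was lowest. The OS9 mean rose from 151 ± 21.8 to 203 ± 10.4 CPM (SD, n = 5; log2FC 0.43 with SE 0.12, edgeR quasi-likelihood adjusted p = 0.020). The call held in 14 of 19 alternatives, and the log2 fold change was 0.34 without DMSO replicate 1 (standard error 0.077) and 0.33 with library size only (adjusted p = 0.14). ERLEC1, the related ER lectin, had a log2 fold change of 0.12 with a standard error of 0.10 (edgeR quasi-likelihood adjusted p = 0.45) and was added after its value was seen.

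EDEM1 lies on chromosome 3 from 5187646 to 5219958 and is a known XBP1 target. It measured 54.1, 55.7, 61.9, 60.7 and 67.0 CPM in DMSO and 72.1, 70.9, 85.2, 85.2 and 85.3 CPM in SFN. The groups did not overlap, and DMSO replicate 1 was the lowest library by a small margin. The mean rose from 59.9 ± 5.15 to 79.7 ± 7.54 CPM (SD, n = 5; log2FC 0.41 with SE 0.10, edgeR quasi-likelihood adjusted p = 0.014). EDEM1 failed the threshold in 2 of 19 alternatives, namely scaling by library size alone (adjusted p = 0.11) and keeping the low-count genes (adjusted p = 0.065).

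EDEM2, on chromosome 20 from 35115364 to 35147336, ranged from 9.46 to 13.4 CPM in DMSO (12.8, 12.2, 13.4, 9.46 and 11.7) and from 10.7 to 20.1 CPM in SFN (14.2, 20.1, 15.0, 17.0 and 10.7). SFN replicate 5 fell within the DMSO range and the other 4 SFN libraries lay above it. The EDEM2 log2 fold change was 0.37 with a standard error of 0.17 (edgeR quasi-likelihood adjusted p = 0.14), and it was 0.48 without SFN replicate 5 (adjusted p = 0.041) and 0.26 without SFN replicate 2, the highest library (adjusted p = 0.28). EDEM3, on chromosome 1 from 184690237 to 184754907, measured 39.9, 76.3, 80.5, 73.9 and 87.2 CPM in DMSO and 90.5, 72.6, 87.8, 96.5 and 129 CPM in SFN. SFN replicate 2 lay inside the DMSO range, and DMSO replicate 1 was far below the rest. The EDEM3 log2 fold change was 0.41 with a standard error of 0.21 (edgeR quasi-likelihood adjusted p = 0.19). Without DMSO replicate 1 it was 0.26 with a standard error of 0.13 (adjusted p = 0.13), and with the length slope as a covariate 0.66 (adjusted p = 3.0e-07). That covariate was chosen after seeing the data and moved with treatment. Its fit called 3292 genes increased and 3431 decreased in all, against 1214 and 1862 in the main fit.

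**Figure D2:**
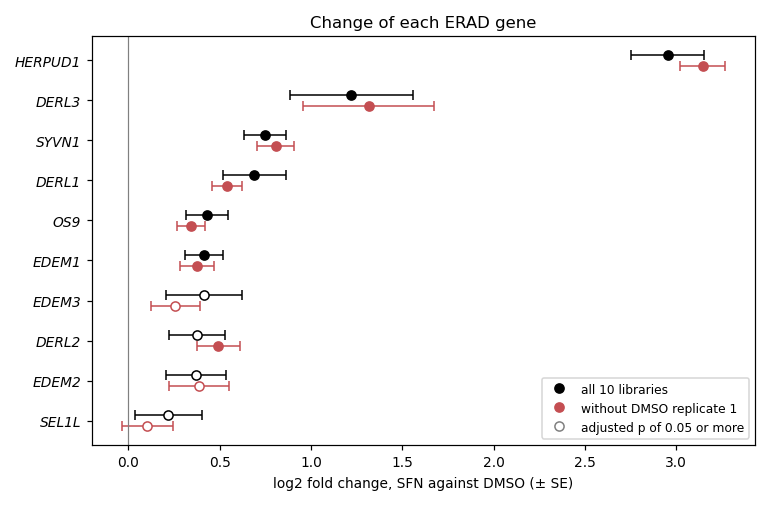
The horizontal axis gives the log2 fold change of SFN against DMSO with its standard error for each ERAD gene, with all 10 libraries (black) and without DMSO replicate 1 (red); open circles did not pass an adjusted p of 0.05. With all 10 libraries HERPUD1 lies at 2.95 and the other 9 genes between 0.22 and 1.22. Without DMSO replicate 1 HERPUD1 lies at 3.14 and the others between 0.10 (SEL1L) and 1.32 (DERL3), and DERL2 passes only there.

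DMSO replicate 1 moved the members in both directions. Relative to the mean of the other 4 DMSO libraries, its log2 CPM was higher for HERPUD1 (0.81), DERL2 (0.54), DERL3 (0.42), SYVN1 (0.30) and EDEM2 (0.14) and lower for EDEM3 (-0.99), DERL1 (-0.93), SEL1L (-0.66), OS9 (-0.47) and EDEM1 (-0.18). The 3 members with the longest canonical transcripts in GENCODE 44, SEL1L (7919 bases), EDEM3 (6837 bases) and EDEM1 (6113 bases), were all lower there. Length did not separate the shorter ones, since DERL1 (3213 bases) and OS9 (2682 bases) were lower and HERPUD1 (2853 bases) and DERL2 (4167 bases) higher. Without this library 7 members were increased and 0 decreased, DERL2 being added, while over all genes 22.5% were then increased and 23.5% decreased. Besides leaving it out, fits with sample quality weights or the length slope as a covariate were run. The part of this library's make-up in the results was otherwise not tested.

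**Figure D3:**
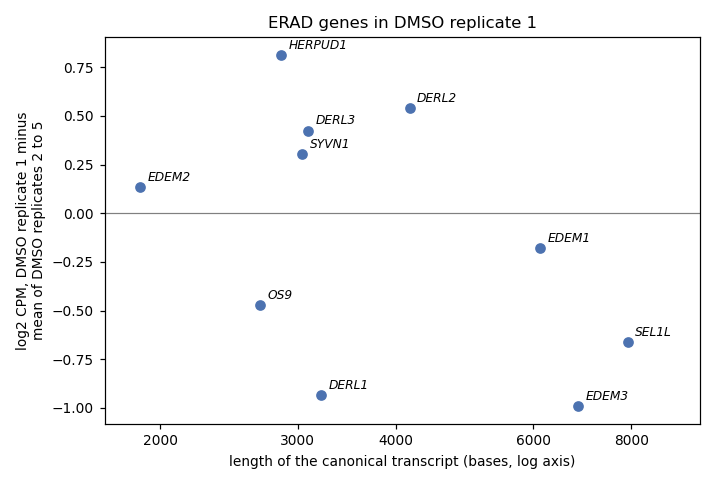
Each point is 1 ERAD gene, with the length of its canonical transcript on a log axis (bases) and its log2 CPM in DMSO replicate 1 minus the mean of DMSO replicates 2 to 5 on the vertical axis. The points run from -0.99 for EDEM3 to 0.81 for HERPUD1, and the 3 longest transcripts lie below 0.

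Whether the members changed by unequal amounts was tested on the ratio of 2 members within each library, which does not depend on how libraries are scaled. The 6 pairs were compared by an exact two-sided permutation test over the libraries, whose smallest p with 5 against 5 is 0.0079, and adjusted over the pairs. The log2 ratio of HERPUD1 to SYVN1 counts was 1.33, 0.99, 0.74, 0.62 and 0.92 in DMSO and 3.21, 3.37, 3.31, 3.04 and 2.90 in SFN, so all SFN libraries were above all DMSO libraries. It rose by 2.25 (standard error 0.15, exact permutation p = 0.0079, adjusted p = 0.048), so HERPUD1 and SYVN1 changed by unequal amounts. With any 1 library left out the difference was between 2.17 and 2.35, where the permutation test on a single separated pair cannot reach the threshold.

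The log2 ratio of SEL1L to SYVN1 was 2.80, 3.63, 3.90, 3.83 and 3.70 in DMSO and 3.12, 2.49, 3.21, 2.99 and 3.37 in SFN. DMSO replicate 1 was the only DMSO library inside the SFN range. The difference was -0.54 (standard error 0.25, exact permutation p = 0.063, adjusted p = 0.19), and without DMSO replicate 1 it was -0.73 (adjusted p = 0.048 by the exact permutation test). The log2 ratio of DERL1 to DERL2 differed by 0.33 (standard error 0.31, exact permutation p = 0.41, adjusted p = 0.83) and ranged from -1.03 in DMSO replicate 1 to 0.75 in DMSO replicate 3. Without DMSO replicate 1 that difference was 0.033 (adjusted p = 0.98 by the exact permutation test). The 3 ratios among EDEM1, EDEM2 and EDEM3 differed between the treatments by -0.084 to 0.060 (adjusted p = 0.94 in each case by the exact permutation test), with standard errors between 0.20 and 0.36, so differences of that size could not be detected here.

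**Figure D4:**
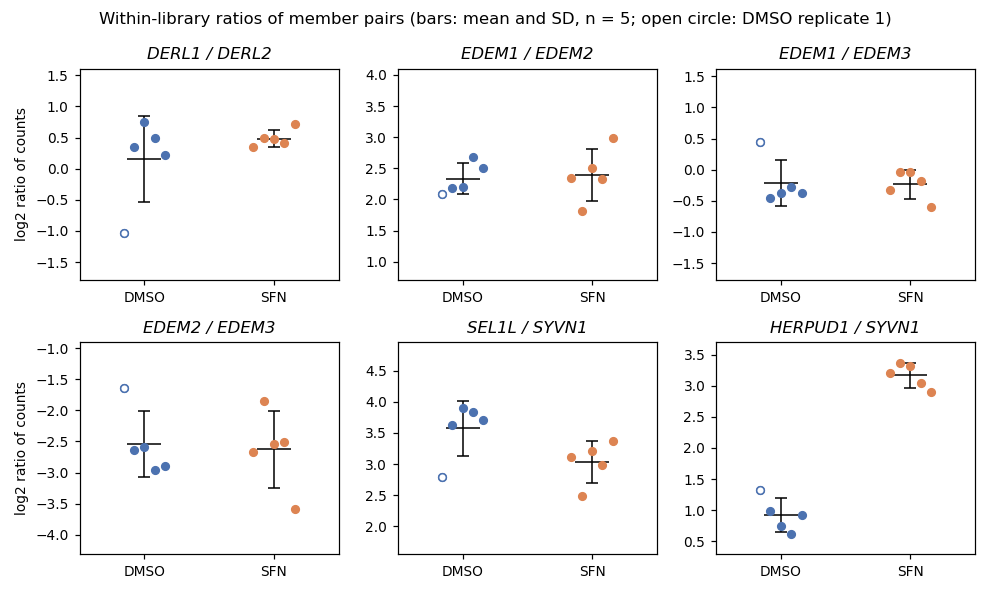
Each panel gives the log2 ratio of the counts of 2 ERAD genes in each DMSO (blue) and SFN (orange) library, with mean and SD as black bars, DMSO replicate 1 as an open circle and the same span on every vertical axis. HERPUD1 to SYVN1 is the pair whose groups are separate, with means of 0.92 in DMSO and 3.17 in SFN.

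The genes whose pattern was most like that of HERPUD1 were sought among 10038 other genes with a mean of at least 5 CPM, by the Pearson correlation of log2 CPM over the 10 libraries. They were TRIB3, a stress-induced pseudokinase (r = 0.994), HMOX1, which encodes heme oxygenase 1 (r = 0.993), SLC3A2, the heavy chain of amino acid transporters (r = 0.991), the heat shock gene HSPA1B (r = 0.99), which may share reads with its near-identical copy HSPA1A, and GCNA (r = 0.99). Each correlation includes the difference between the treatments, which these genes share. The named genes were picked by correlation over these libraries, which favours high values, and no background from the other genes is given. With the mean of each treatment removed, the correlations were between 0.69 and 0.82 over the same libraries. These include DMSO replicate 1, the highest DMSO library for HERPUD1 (31.9 CPM), whose part in the correlations was not tested. TRIB3 had a log2 fold change of 2.92 (standard error 0.20), close to that of HERPUD1, and HMOX1 had 1.42 (standard error 0.12).

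Among 74 other genes of the pathway, 13 (17.6%) were increased and 2 (2.7%) decreased, against 9.07% and 13.9% of all genes tested. Before adjustment, 21 were higher and 5 lower with p under 0.05, against 14.6% and 20% of all genes tested. Their median log2 fold change was 0.14, and 53 were positive. Without DMSO replicate 1 the counts of the list were 30 increased and 5 decreased, against 22.5% and 23.5% of all genes.

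In the lumen, 5 of 16 genes of recognition and folding were increased and 0 decreased, against 9.07% and 13.9% of all genes tested. Their median log2 fold change was 0.20. DNAJB9, a co-chaperone that delivers ERAD substrates and restrains the UPR sensor IRE1, had the largest increase of the list. It measured 17.4, 14.7, 13.0, 17.0 and 16.8 CPM in DMSO and 60.7, 54.4, 63.0, 62.8 and 56.1 CPM in SFN, and the groups were far apart (log2FC 1.91 with SE 0.11, edgeR quasi-likelihood adjusted p = 8.0e-07). HSPA5, the ER Hsp70 known as BiP, rose from 1053 ± 275 to 1959 ± 155 CPM (SD, n = 5; log2FC 0.90 with SE 0.16). DMSO replicate 1 had 1538 CPM of HSPA5 and the other DMSO libraries between 885 and 1010 CPM. Without DMSO replicate 1 the HSPA5 log2 fold change was 1.07. DNAJB11, another ER co-chaperone, rose from 124 ± 6.72 to 215 ± 5.10 CPM (log2FC 0.80 with SE 0.086).

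At the membrane, 5 of 27 ligases, adaptors and scaffolds were increased and 0 decreased, against 9.07% and 13.9% of all genes tested. Their median log2 fold change was 0.19. TMUB2, a membrane ubiquitin-like protein, rose from 15.0 ± 2.44 to 22.4 ± 2.79 CPM (log2FC 0.58 with SE 0.14, edgeR quasi-likelihood adjusted p = 0.011). Of the 5 ubiquitin-conjugating enzymes, 1 was increased and 0 decreased, against 9.07% and 13.9% of all genes tested. Their median log2 fold change was -0.039, and only 2 of the 5 were positive. The increased enzyme was UBE2J1, which works with SYVN1, named here after its value was seen (log2FC 0.46 with SE 0.091, edgeR quasi-likelihood adjusted p = 0.0032).

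For extraction by p97/VCP, 2 of 9 genes were increased and 0 decreased, against 9.07% and 13.9% of all genes tested. Their median log2 fold change was 0.31. FAF2, a membrane adaptor of p97, rose from 69.6 ± 17.8 to 109 ± 17.1 CPM (log2FC 0.65 with SE 0.19, edgeR quasi-likelihood adjusted p = 0.031) but held the threshold in only 13 of 19 alternatives. Without DMSO replicate 1 the FAF2 log2 fold change was 0.49. Of 17 genes of deubiquitination and delivery to the proteasome, 0 were increased and 2 decreased, with a median log2 fold change of 0.035, where 13.9% of all genes tested were decreased. UBQLN2, a shuttle factor, fell from 29.5 ± 3.45 to 21.9 ± 1.75 CPM (log2FC -0.43 with SE 0.11, edgeR quasi-likelihood adjusted p = 0.016). UBL4A, a subunit of the BAG6 complex that handles membrane proteins in the cytosol, fell from 23.7 ± 5.80 to 16.5 ± 2.65 CPM (log2FC -0.53 with SE 0.18, edgeR quasi-likelihood adjusted p = 0.049), with overlapping groups and the call held in 9 of 19 alternatives. Its log2 fold change was -0.40 without DMSO replicate 1. Differences between the roles, or between a role and all genes tested, were not tested.

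**Figure D5:**
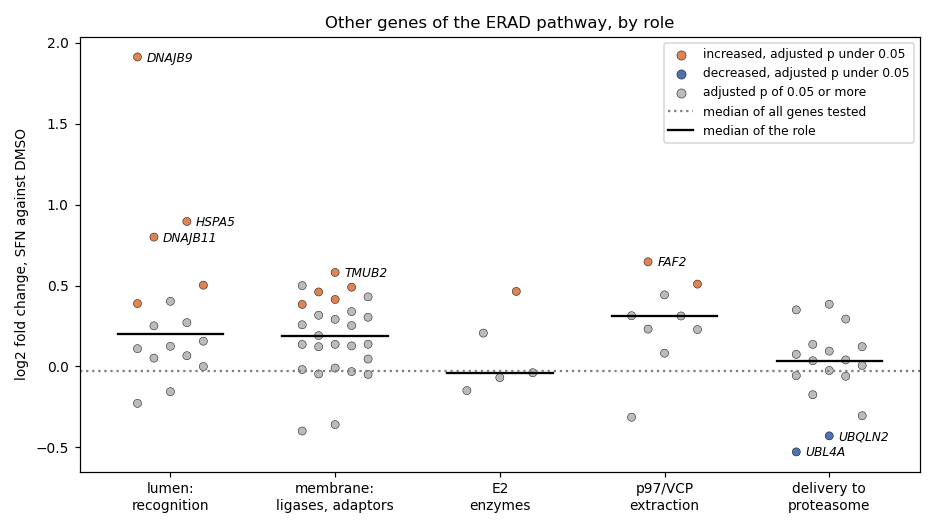
Each point is 1 of the 74 other ERAD pathway genes, placed by its role, with the log2 fold change of SFN against DMSO on the vertical axis; orange and blue mark genes increased and decreased at an adjusted p under 0.05, black lines the median of a role and the dotted line the median of all genes tested (-0.028). DNAJB9 stands highest at 1.91, and the lowest value is -0.53, for UBL4A in the delivery group.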

How the data were processed

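RNA from 10 RPE-1 samples (5 DMSO, 5 SFN) was sequenced as Lexogen QuantSeq libraries, a 3′-end method, and aligned with the Bluebee pipeline according to the study's methods, while the labels name a standard Illumina preparation. The authors deposited raw counts per Ensembl gene on GRCh38, unnormalized and per replicate. The submitters' processing notes list FastQC, STAR, featureCounts and edgeR; versions, use of strand or molecular identifiers and the Ensembl release are not given in the sources used here. The study's repeated-measures model in limma was not run, since no repeated unit is given in the sources used here; limma-voom with quantile normalization was the nearest alternative.

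The main test used R 4.3.3 with edgeR 4.0.16 (filterByExpr, which kept 13378 of 28380 genes, TMM scaling, glmQLFit and glmQLFTest), and alternatives used DESeq2 1.42.0 and limma 3.58.1. A standard error was obtained from the fold change on the log2 scale and the F statistic (its size over the root of F). Log2 CPM used a prior count of 2. Ratios of members used counts plus 0.5 and exact permutation tests in SciPy 1.17.1. Positions and transcript lengths came from GENCODE 44 (GRCh38). Replicates of a treatment differed by more than sampling noise, with a chi-square per degree of freedom of at least 2.77.

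The members and lists were chosen with earlier results of these data known, so no list gets a p-value of its own. The genes named are the 10 members, the 5 largest increases and 5 largest decreases among called genes of the pathway list (2 were decreased), and the 5 genes most correlated with the member of largest change. Alternatives covered scaling, test, low-count filter, replicate number as a block and leaving out each library, and those with a length slope or without both DMSO replicate 1 and SFN replicate 2 were added after seeing the data. The fit was tested on simulated counts with changes of 2-fold or more, the same dispersion for all genes and no outlying library. That test does not cover smaller changes or a library such as DMSO replicate 1. Depth limits DERL3 most.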

Additional observations from a re-analysis of the deposited data

Results flagged for a closer look

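In each group of 5 libraries, a value was singled out where the gap of the highest or lowest library to its nearest neighbour, divided by the range of the group, was above 0.71. Of 46 groups examined, 8 met this, where chance gives about 2.3, and 7 of the 8 were DMSO replicate 1.

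DMSO replicate 1 was the lowest DMSO library for SEL1L (88.4 CPM, gap 0.799 of the range), DERL1 (29.0 CPM, gap 0.795) and EDEM3 (39.9 CPM, gap 0.719). It was the highest for HSPA5 (1538 CPM, gap 0.809). The same library stood apart in the log2 ratios of EDEM1 to EDEM3 (0.44, gap 0.811), EDEM2 to EDEM3 (-1.64, gap 0.713) and SEL1L to SYVN1 (2.80, gap 0.761), which share genes with the first 3 values and are not independent of them. The remaining value was UBQLN2 in SFN replicate 4, the highest SFN library with 25.0 CPM (gap 0.822).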

How the results depend on the processing

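HERPUD1, SYVN1, DNAJB9, HSPA5 and DNAJB11 kept their direction and their call in all 19 alternatives, and no member changed direction in any. The number of increased members, 6, was 3 with library size only (HERPUD1, SYVN1 and DERL3), between 4 and 7 when libraries were left out in turn and up to 9 with sample quality weights or the length slope as a covariate; decreased members numbered 0 throughout. The increased genes of the pathway list, 13, were 9 with library size only, 9 without a low-count filter and 9 with the replicate block. They were 11 with quantile normalization, 14 with DESeq2 size factors, 21 with DESeq2 and 36 with sample quality weights. Without both DMSO replicate 1 and SFN replicate 2 they were 32, and with the length slope 39. Leaving out each library gave between 9 and 30 increased genes of the list. Its decreased genes, 2, were 1 with DESeq2 size factors, 4 with library size only, 7 with sample quality weights, 0 without a low-count filter, 0 with the replicate block, 6 without both libraries, 8 with the length slope, and between 1 and 5 when each library was left out. Without DMSO replicate 1, 3058 genes in all were increased and 3193 decreased, against 1214 and 1862, with library size only 819 and 2163, with DESeq2 1635 and 2121, with quality weights 3874 and 4041, with the length slope 3292 and 3431, and without both libraries 3106 and 3273. The cause of these shifts was not tested.

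Of the 6 ratios, 1 passed the threshold, 2 did without DMSO replicate 1 and 0 when another library was left out, since 4 against 5 libraries with 2-sided tests allow an adjusted p of no less than 0.095 for a single pair; the count was 0 with the replicate block, where 5 pairs cannot reach the threshold. Leaving out libraries turned the sign of the EDEM ratios, which lay between -0.089 and 0.20 for EDEM1 to EDEM2, -0.085 and 0.14 for EDEM1 to EDEM3 and -0.28 and 0.15 for EDEM2 to EDEM3. Deviations of same-numbered DMSO and SFN libraries from their group means had correlations from -0.27 to 0.48, highest for replicate 5. Whether the replicates were paired is not given in the sources used here, and so few correlations cannot decide it. The replicate block therefore serves only as an alternative. It left the count of increased members at 5, with OS9 lost (edgeR quasi-likelihood adjusted p = 0.060).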
